A study of Mus musculus with 6 samples.

Results

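Integrins are receptors made of 1 α chain and 1 β chain that tie a cell to its neighbours and to the matrix. The 9 chains described here are those of erythroblast-macrophage adhesion and of leukocytes, namely Itga4, Itga5, Itgae, Itgal, Itgam, Itgb1, Itgb2, Itgb3 and Itgb7. They were found as every non-control probe that carries 1 of these gene names on an Agilent whole mouse genome array, which gave 16 of the 55681 probes. The set was chosen by the signal of Itgb7, which differed between the genotypes on these same arrays. The genotype differences of all 9 chains are therefore given as a description, and no test is drawn from them.

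In the BM, erythroblasts mature in islands around a central macrophage. The pair of α4 and β1 chains on the erythroblast binds VCAM1 on the macrophage and fibronectin in the matrix, and ICAM4 on the erythroblast is held by macrophage integrins that contain the αV chain. The β7 chain pairs with α4 or with αE and is best known from lymphocytes that home to the gut. The β2 chain pairs with αL on most leukocytes and with αM on neutrophils and macrophages, and β3 pairs with αIIb on platelets.

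BM erythroblasts were sorted as CD71highTer119+ cells from 3 P38α+/− and 3 P38α−/− mice and hybridised with 1 array per mouse. All 6 mice had been made anaemic by 1 dose of PHZ at 100 mg per kg, a drug that lyses red cells, and were on day 4 of recovery. The methods give the P38α+/− controls as Mx1-Cre/P38α fl/+ and the P38α−/− mice as Mx1-Cre/P38α fl/fl on a C57Bl/6 background, so both genotypes carried the Cre, had a floxed allele and were anaemic. Both also received 3 injections of PolyIC (300 µg each) at 6 to 8 weeks of age, which switches the Mx1 promoter on in blood-forming cells and in other tissues that respond to interferon, and rested for 6 weeks. The RNA (10 ng per mouse) was amplified and carried a Cy3 label.

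Mapk14, the gene of P38α, was read first as a check of the labels. Its brighter probe (chromosome 17 of mm9, 28885290 to 28885349) gave 0.33, 0.58 and 0.61 in P38α+/− and 0.76, 1.19 and 1.20 in the arrays labelled P38α−/−, higher on all 3 (log2 difference 0.54, standard error 0.19, adjusted p = 0.186 by limma). The dimmer one (28873965 to 28874024) differed by 0.01 (standard error 0.42). The Mapk14 signal was thus not lower where the labels give P38α−/−, and the sources used here do not say which sequence was deleted. Every direction below is therefore that of the arrays labelled P38α−/−. Values are log2 signals minus the 75th percentile of the array, taken over the 15538 probes detected above background on every array. On this scale the median tested probe was lower by 0.16 (log2 difference −0.16) in P38α−/−, and differences are also given relative to it. Detection was uneven, with 36.9% to 53.1% of the probes well above background on the P38α+/− arrays and 28.9% to 35.9% on the P38α−/− arrays. The 11 erythroblast markers were well above background on all 6 arrays, and their summed log2 signal was 9.19 to 9.85 in P38α+/− and 9.16 to 9.91 in P38α−/−.

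Of the 16 integrin probes, 10 were well above background on all 6 arrays and 2 on none. Testing required detection above background on every array of either genotype, which left 11 probes of 7 chains, and Itga5 and Itgae were not tested. A gene was called where limma gave it a Benjamini-Hochberg adjusted p no higher than 0.05 and its signal changed 2-fold or more. Of the 7 tested chains 1 was called, Itgb7, and of all 14155 tested genes 27 were called, or 0.191%. Since the set was proposed from this contrast, nothing is read from that count. By the brightest tested probe of each chain, 1 chain was higher and 2 were lower in P38α−/− with no overlap between the genotypes, and the other 4 overlapped. Over all tested genes the genotypes did not overlap for 27.1%, with 7.46% higher and 19.7% lower in P38α−/−. The median log2 difference of the 7 chains was −0.28, with 2 above and 5 below the median probe.

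**Figure D1:**
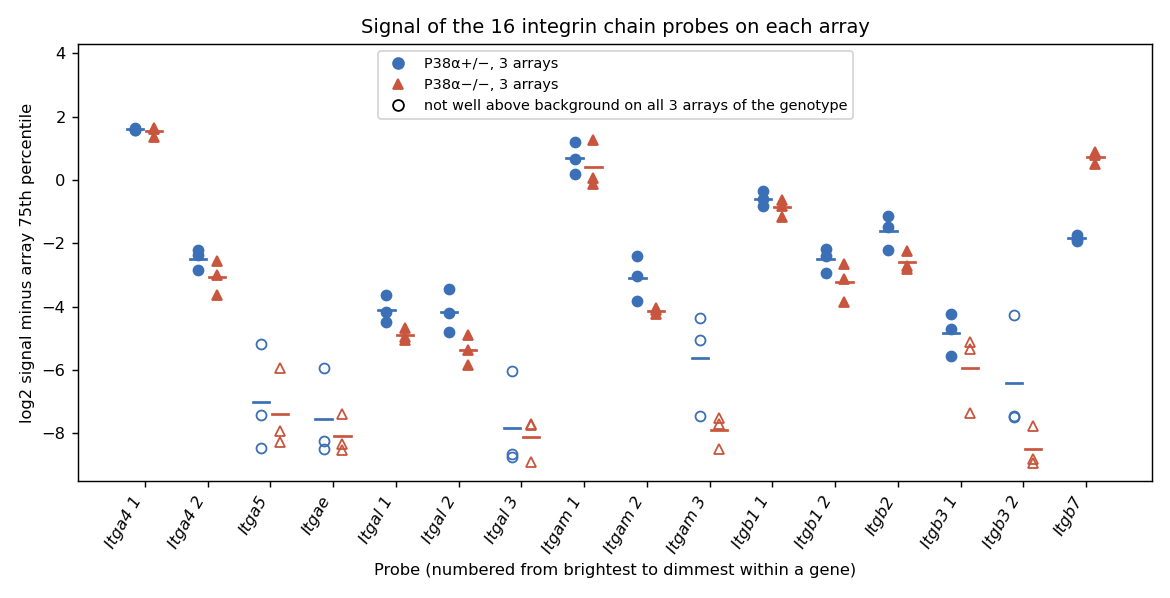
Log2 signal of each of the 16 integrin probes (vertical axis, minus the array's 75th percentile) on the 3 P38α+/− arrays (circles) and the 3 P38α−/− arrays (triangles), with the mean of each genotype as a bar and open symbols where the probe was not well above background on all 3 arrays of that genotype. Itgb7, at the right, is higher in P38α−/− with no overlap, whereas no other filled probe lies higher in P38α−/− on all 3 arrays.

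Itgb7, the β7 chain, stood apart from the other chains in that its signal was higher in P38α−/−. It was read by 1 probe on the minus strand of chromosome 15 of mm9 (102046450 to 102046509). The first 30 of its 60 bases, shown because every Itgb7 value rests on this probe, are given 5′ to 3′ as in the array file.
Itgb7: atttttcagagtgaccttcagagggcagca
The 3 P38α+/− arrays read −1.91, −1.73 and −1.85, and the 3 P38α−/− arrays read 0.78, 0.52 and 0.90. All 3 P38α−/− arrays lay above all 3 P38α+/− arrays, and the arrays of 1 genotype lay close together. The means were −1.83 ± 0.09 (SD, n = 3) and 0.73 ± 0.20, so the gap between the genotypes was larger than the spread within either. The log2 difference was 2.57 (standard error 0.17), or 2.72 relative to the median probe, which is a fold of 5.92. Among the 18782 tested probes this was the difference of rank 12 when ordered from the highest rise, and of rank 5 among the 28 probes called. In sorted cells measured in bulk, more cells with a transcript and more transcript per cell cannot be told apart, and neither can fewer and less.

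The Itgb7 difference was recomputed under 17 alternatives of the processing, and its sign was the same in each of them. Many of these could not have turned it. Another filter on dim probes, the replicate block and the mean over a gene's probes leave this 1 probe at 2.57. Leaving out or weighting arrays cannot turn the sign where all 3 P38α−/− arrays lie above all 3 P38α+/− arrays. It ran from 2.37, with normexp background correction, to 3.05, with the 75th percentile taken over all probes. That last scaling also moved the median tested probe from −0.16 to 0.32. Relative to the median probe the difference ran from 2.45 to 2.84. The call itself was lost with centring on the E1A spike-in spots, where the standard error rose to 0.87, without a filter on dim probes, with the slide as a block, without P38α+/− replicate 2 and without any 1 of the P38α−/− arrays. The 2nd slide held P38α−/− replicate 3 and nothing else, so the slide block amounts to leaving that array out, and the difference was then 2.48.

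**Figure D2:**
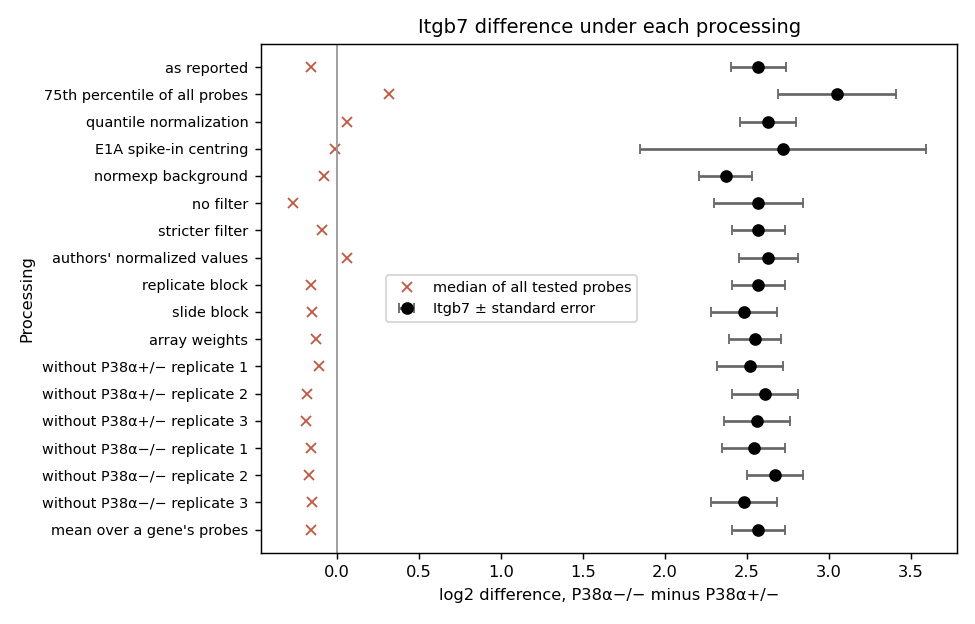
Log2 difference of Itgb7 (P38α−/− minus P38α+/−, black points with standard errors) and of the median of all tested probes (crosses), as reported and under each of the 17 alternatives on the vertical axis. The Itgb7 difference stays between 2.37 and 3.05 while the median probe stays between −0.27 and 0.32.

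Itga4, the α4 chain that pairs with β1 or β7, was read by 2 probes on the plus strand of chromosome 2, and Itgb1, the β1 chain, by 2 probes on the plus strand of chromosome 8. The first 30 bases of each are shown because the probes of 1 chain lie at different places along the transcript, and they are numbered from the brightest. Itga4 probe 1 starts at base 9754 of its target transcript and probe 2 at base 2292, and Itgb1 probe 1 starts at base 2631 and probe 2 at base 1840.
Itga4 probe 1: gtgtgtggaatgcattataaagatctaaca
Itga4 probe 2: taagatcttagacctggaagagaaacaaat
Itgb1 probe 1: gacacgggtgaaaatcctatttacaagagt
Itgb1 probe 2: tggacgcttactgcaggaaagagaacagtt
Itga4 probe 1 (79173193 to 79173252) read 1.58, 1.59 and 1.65 in P38α+/− and 1.37, 1.64 and 1.60 in P38α−/−, with overlapping genotypes. Its log2 difference was −0.07 (standard error 0.15), or 0.09 relative to the median probe. Itga4 probe 2, which spans 1131 bases of the genome (79153985 to 79155115), read −2.83, −2.38 and −2.22 in P38α+/− and −3.62, −2.55 and −3.01 in P38α−/−. Its log2 difference was −0.59 (standard error 0.31), again with overlap.

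Itgb1 probe 1, which spans 5896 bases of the genome (131250081 to 131255976), read −0.82, −0.59 and −0.34 in P38α+/− and −1.16, −0.62 and −0.81 in P38α−/−. The genotypes overlapped, and the log2 difference was −0.28 (standard error 0.21). Itgb1 probe 2 (131246349 to 131246408) read −2.93, −2.41 and −2.17 in P38α+/− and −3.86, −2.64 and −3.13 in P38α−/−, a log2 difference of −0.71 (standard error 0.36) with overlap. Both chains differed by less than Itgb7 by every probe, and no probe of either chain separated the genotypes. The sign of the brighter Itga4 probe turned with the 75th percentile of all probes (0.41), with E1A centring (0.08) and without P38α−/− replicate 1 (0.01), and that of the brighter Itgb1 probe with the 75th percentile of all probes (0.20).

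**Figure D3:**
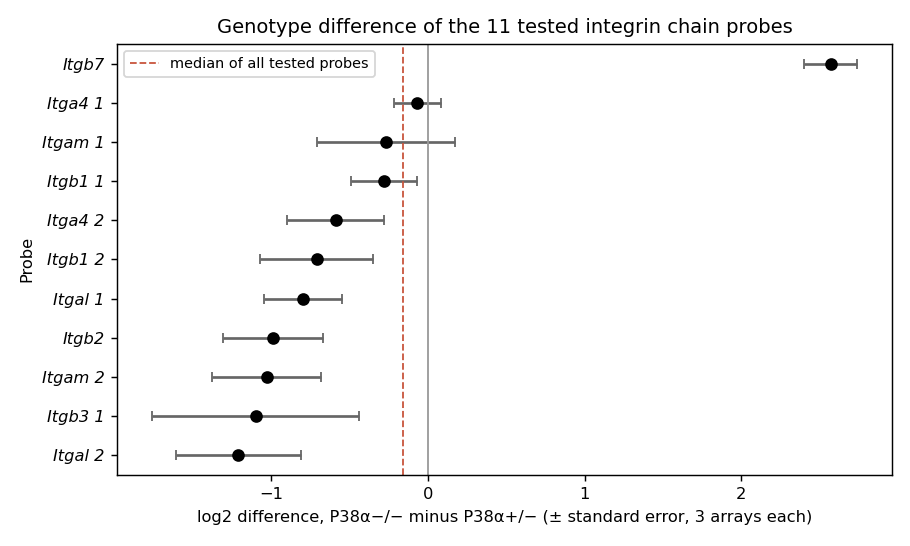
Log2 difference (P38α−/− minus P38α+/−, horizontal axis) with its standard error for the 11 tested integrin probes, ordered by size, with the median of all tested probes at −0.16 as a broken line. Itgb7 lies at 2.57, and the other 10 probes lie between −1.21 and −0.07.

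Subtracting a constant from a whole array does not change the ratios within it, whereas quantile normalization or another background correction can. With the P38α+/− mean set to 0, the log2 ratio of Itgb7 to Itgb1 was 3.19, 2.38 and 2.96 on the P38α−/− arrays, a difference of 2.85 (SD 0.23 over the 3 P38α+/− arrays and 0.42 over the 3 P38α−/− arrays). The log2 ratio of Itgb7 to Itga4 differed by 2.64 (SD 0.10 and 0.28), and both ratios were higher on all 3 P38α−/− arrays. The ratio of Itga4 to Itgb1 differed by 0.21, with overlapping genotypes.

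For Itga4 and Itgb1 the probe nearer the start of the transcript was lower, relative to the probe nearer its end, in P38α−/−. With the P38α+/− mean set to 0, the log2 signal of the upstream minus the downstream probe of Itga4 was −0.32, 0.11 and 0.21 in P38α+/− and −0.90, −0.11 and −0.53 in P38α−/−. For Itgb1 it was −0.19, 0.10 and 0.09 in P38α+/− and −0.78, −0.10 and −0.40 in P38α−/−. Both pairs overlapped, because replicate 1 of P38α+/− was low too. The same measure was taken over the 718 transcripts with probes well above background on all 6 arrays and at least 1000 bases apart. The probes of Itgb1 lie closer together than that. The median of the 718 transcripts was −0.03, 0.01 and 0.02 in P38α+/− and −0.29, −0.09 and −0.14 in P38α−/−. It was lower on all 3 P38α−/− arrays, and the difference was below 0 for 511 of the transcripts, or 71.2%. The part of this shift in the values of the upstream probes was not tested. Itgb7 has 1 probe, so the measure cannot be taken for it.

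**Figure D4:**
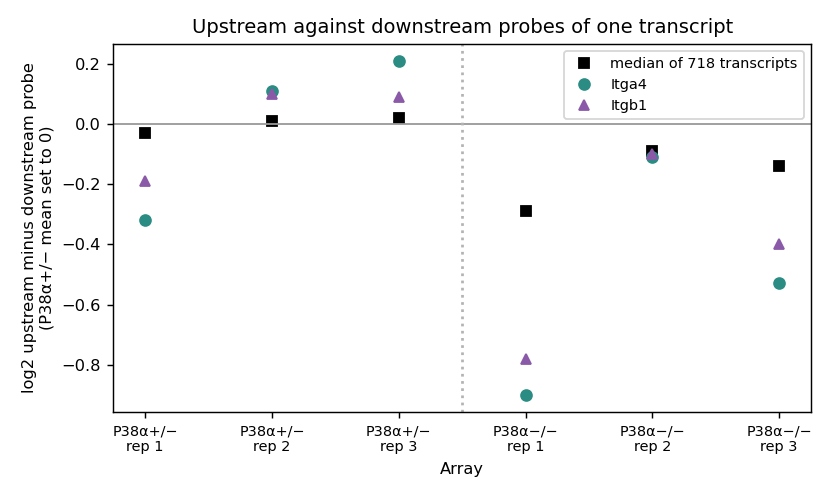
Log2 signal of the upstream minus the downstream probe of a transcript on each array (vertical axis, P38α+/− mean set to 0), as the median of 718 transcripts (squares) and for Itga4 (circles) and Itgb1 (triangles). The squares of the 3 P38α−/− arrays lie at −0.29, −0.09 and −0.14, below those of the 3 P38α+/− arrays, and the integrin points follow with a wider range.

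Itga5, the α5 chain of the fibronectin receptor, had 1 probe (chromosome 15, 103175022 to 103175081), detected above background on 1 P38α+/− array and on none of the P38α−/− arrays. It read −5.17, −7.41 and −8.45 in P38α+/− and −5.92, −7.93 and −8.27 in P38α−/−, so no level is established. Itgae, the αE chain and the other partner of β7, had 1 probe (chromosome 11, 72945236 to 72946221, spanning 986 bases of the genome) that no array detected above background. By these probes, then, the only α partner of β7 that was read on all 6 arrays was Itga4.

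Itgb2 and Itgal, chains of the leukocyte integrins, were lower on all 3 P38α−/− arrays. Itgb2, the β2 chain, had 1 probe (chromosome 10, 77027978 to 77028037) that read −1.47, −1.13 and −2.22 in P38α+/− and −2.25, −2.71 and −2.82 in P38α−/−. All 3 P38α−/− arrays lay below all 3 P38α+/− arrays, by a narrow margin against P38α+/− replicate 3. The log2 difference was −0.99 (standard error 0.32), or −0.83 relative to the median probe.

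Itgal, the αL chain on chromosome 7, had 2 tested probes. Its brighter probe (134477160 to 134477219) read −4.17, −3.62 and −4.48 in P38α+/− and −4.94, −4.67 and −5.06 in P38α−/−, a log2 difference of −0.80 (standard error 0.25). The other (134477064 to 134477123) read −3.45, −4.21 and −4.81 in P38α+/− and −4.88, −5.35 and −5.85 in P38α−/−, a log2 difference of −1.21 (standard error 0.40). Both probes were lower on all 3 P38α−/− arrays, beyond the lowest P38α+/− array. A further Itgal probe (134474711 to 134474767) was not detected above background on any array. The size of the Itgal difference depended on the scaling, with −0.14 by the brighter probe after quantile normalization, −0.24 with the authors' normalized values and −0.80 as reported.

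Itgam, the αM chain that marks neutrophils and macrophages, was read by 3 probes on chromosome 7 that did not give 1 picture. The first 30 bases of the tested ones are shown because the brightest begins with a repeat, whose 10 CA units are in capitals.
Itgam probe 1: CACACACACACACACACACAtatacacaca
Itgam probe 2: aagttcacaatcctgtaccactcattgtgg
Probe 1 (135261755 to 135261814) read 1.20, 0.66 and 0.19 in P38α+/− and 1.27, −0.13 and 0.08 in P38α−/−, with overlapping genotypes and a log2 difference of −0.27 (standard error 0.44). Probe 2 (135260275 to 135260334) read −3.04, −2.40 and −3.83 in P38α+/− and −4.03, −4.24 and −4.09 in P38α−/−, lower on all 3 arrays, with a log2 difference of −1.03 (standard error 0.35). The third probe (135212140 to 135212199) was well above background on 2 P38α+/− arrays and on none of the P38α−/− arrays, and was not tested. It read −5.05, −4.34 and −7.46 in P38α+/− and −7.51, −8.48 and −7.70 in P38α−/−.

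The repeat at the head of Itgam probe 1 is rare on the array. A run of at least 10 CA units was found in 22 of the 55681 probes, or 0.0395%. All 22 were well above background on all 6 arrays, against 27.9% of all probes, and their median log2 difference was −0.25. Whether the signal of probe 1 came from Itgam transcripts was not tested. The sign of this probe also turned with the 75th percentile of all probes, to 0.21, and its difference was 0.00 without P38α−/− replicate 2.

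Itgb3, the β3 chain, was read by 1 tested probe (chromosome 11, 104531672 to 104531731), detected above background on all 3 P38α+/− and 2 of the 3 P38α−/− arrays. It read −4.69, −4.22 and −5.57 in P38α+/− and −5.12, −7.34 and −5.32 in P38α−/−, with overlapping genotypes. The log2 difference was −1.10 (standard error 0.66), and without P38α−/− replicate 2, where this probe read lowest, it was −0.39. A second Itgb3 probe (104528625 to 104528684) was well above background on 1 P38α+/− array alone and was not tested.

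Within an array the log2 ratio of Itgal to Itgb2 differed by 0.19 between the genotypes and that of Itgam probe 1 to Itgb2 by 0.71, both with overlap. After quantile normalization the log2 difference was −0.14 for Itgal and −0.85 for Itgb2. A CD71highTer119+ gate could also hold other blood cells, and their marker lists did not all move alike. Those of neutrophils were lower along with Itgb2, Itgal and Itgam probe 2, and lists of other leukocytes, described below, were lower too. The 14 neutrophil markers were all tested, 12 of them were lower on all 3 P38α−/− arrays, all 14 lay below the median probe, and 0 were called by limma, with 12 at a 2-fold change and an unadjusted p no higher than 0.05. Their median log2 difference was −1.34, and their summed log2 signal was 6.79 to 8.17 in P38α+/− and 5.89 to 6.39 in P38α−/−. Without S100a9, the brightest of them, the sums were 5.65 to 7.29 and 4.68 to 5.14. Over all tested genes, 10.8% reached that unadjusted threshold in either direction. From fewer tested markers, the median log2 difference was −2.94 for B cells, −2.68 for eosinophils and −2.25 for mast cells or basophils. It was −0.32 for T or NK cells, 0.01 for dendritic cells and 0.33 for megakaryocytes or platelets. The part of RNA of neutrophils or of any other of these cells in the lower Itgb2, Itgal and Itgam signals was not tested.

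The monocyte or macrophage markers had 6 of 13 tested and a summed log2 signal of −0.73 to 0.26 in P38α+/− and −1.29 to −0.31 in P38α−/−, with overlap. Adgre1, C1qa and C1qc among them were tested only through their signal in P38α+/−. Siglec1, which marks island macrophages, and Cd163, a scavenger receptor of macrophages, were not well above background on any array. For Itgb3 the megakaryocyte or platelet list is the nearest. It had 3 of 9 markers tested and a summed log2 signal of 0.55 to 0.96 in P38α+/− and 0.81 to 1.13 in P38α−/−, with overlap. That sum rests on Gp9, since without it the sums were −3.46 to −2.30 and −3.97 to −3.71, lower without overlap. The tested markers were not of 1 direction. Pf4 was lower on all 3 P38α−/− arrays (log2 difference −1.42), and Gp9 (0.33) and Gp1ba (1.01) overlapped. Gp1ba was tested only through its signal in P38α−/−. Ppbp and Gp1bb of this list were not well above background on any array.

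Outside the erythroid lineage Itgb7 is known from lymphocytes, mast cells and their precursors. Of the T or NK cell markers 5 of 12 were tested, with a summed log2 signal of 0.27 to 1.64 in P38α+/− and −0.03 to 0.18 in P38α−/−, and Cd8a was dim on all 6 arrays. That sum rests on Nkg7, a granule protein of NK cells (log2 difference −1.67), since without it the genotypes overlapped (−0.37 to −0.05 against −0.63 to −0.23). Cd3e, Lck and Cd4 overlapped too, while Gzma was lower on all 3 P38α−/− arrays (log2 difference −1.06). Gzma was tested only through its signal in P38α+/−. The mast cell or basophil markers (3 of 10 tested) summed to −1.45 to 0.88 in P38α+/− and −2.55 to −1.87 in P38α−/−, and overlapped without Hdc, the histamine-forming enzyme. Of these, Mcpt8 was tested only through its signal in P38α+/−, and Ms4a2, Tpsab1, Mcpt4 and Cma1 were not well above background on any array.

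The B cell markers (4 of 9 tested) summed to −2.92 to 0.49 in P38α+/− and −4.31 to −2.56 in P38α−/−, and the early progenitor markers (3 of 6 tested) to −2.46 to −0.75 and −3.48 to −2.37. Both lists overlapped over all arrays but were lower within each of the 3 pairs of same-numbered arrays, with log2 differences of −4.46 to −1.39 and −1.72 to −1.02. Without Cd79b, the brightest tested B cell marker, the sums were −3.69 to −0.57 and −5.44 to −4.30, lower without overlap. Without Myb, the brightest progenitor marker, they were −4.22 to −2.46 and −5.83 to −4.27, also without overlap but by a narrow margin. The monocyte or macrophage and eosinophil lists, whose sums over all tested markers overlapped as well, were also lower within each pair (−1.10 to −0.54 and −4.53 to −2.60). With the replicate number as a block, Ebf1 of the B cell list, Kit and Cd34 of the progenitor list and Cxcr2 of the neutrophil list were called as lower (each with an adjusted p of 0.0481 by limma), and Ebf1, Kit and Cd34 were tested only through their signal in P38α+/−. Ms4a1 of the B cell list and Mzb1 of the plasma cell list were also tested only through their signal in P38α+/−. The plasma cell list (2 of 5 tested) summed to −1.02 to −0.33 in P38α+/− and −3.01 to −1.14 in P38α−/−. The dendritic cell list (2 of 5 tested) was not of 1 direction, with Siglech lower on all 3 P38α−/− arrays (log2 difference −0.30) and Zbtb46 at 0.32 with overlap. The eosinophil list (4 of 5 tested) overlapped, at −0.28 to 3.27 against −2.88 to −0.18. Without Prg2, its brightest marker, the eosinophil list was at −3.07 to 0.11 against −5.19 to −3.25, lower without overlap. Its Epx, Ccr3 and Siglecf were tested only through their signal in P38α+/−. The part of any of these cell types in the Itgb7, Itgb2, Itgal or Itgam signals was not tested, and many of their markers were too dim to test. With every listed gene summed, tested or not, the same lists separated the genotypes and the same lists overlapped as with all tested genes summed.

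**Figure D5:**
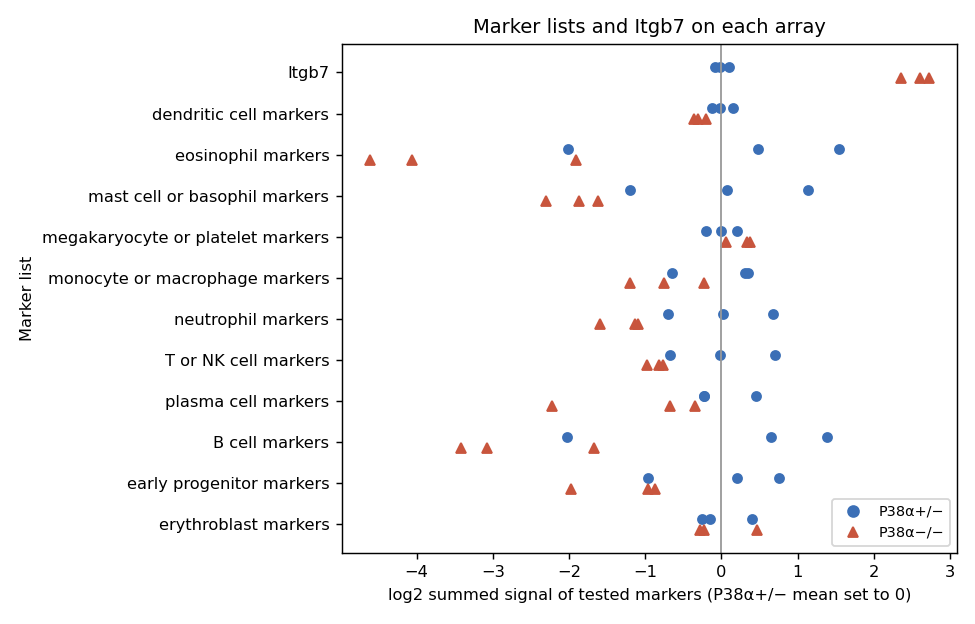
Summed log2 signal of the tested genes of each marker list, and of Itgb7, on each array (horizontal axis, P38α+/− mean of that list set to 0), for P38α+/− (circles) and P38α−/− (triangles). In the Itgb7 row all 3 P38α−/− arrays lie above all 3 P38α+/− arrays, in the neutrophil row (14 of 14 markers tested) all 3 lie below, and in the erythroblast row (11 of 11) they overlap. Without their brightest marker the T or NK cell, mast cell or basophil and dendritic cell sums overlapped. Without theirs, the early progenitor, B cell, megakaryocyte or platelet and eosinophil sums were lower on all 3 P38α−/− arrays, without overlap.

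The rest of the adhesion pathway was taken from 4 lists of 80 genes, of which 46 were tested. None was called (0 of 46 by limma after Benjamini-Hochberg adjustment), 13 changed 2-fold at an unadjusted p no higher than 0.05, where 10.8% of all tested genes did, and the methods' unpaired test with adjustment also called 0. By the brightest tested probe 3 genes were higher and 15 lower in P38α−/− without overlap, 28 overlapped, and 19 lay above and 27 below the median probe. The shares over all tested genes were 7.46% higher and 19.7% lower, and the counts of the lists below stand beside the same shares. None of the values below passed the threshold, and they are given as measured.

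Of the 17 other integrin chains, 5 were tested, 1 was lower on all 3 P38α−/− arrays and 4 overlapped. Itgax, the αX chain that is a further partner of β2, read −4.42, −4.81 and −5.83 in P38α+/− and −5.94, −6.16 and −8.44 in P38α−/−. It was lower on all 3 arrays by 1.83 (log2 difference −1.83, adjusted p = 0.225 by limma), and it was well above background on only 1 of the 3 P38α−/− arrays. Itga2b, the αIIb partner of β3, differed by 0.22 (limma, adjusted p = 0.803) and Itga6, the α6 chain of a laminin receptor, by −0.69 (limma, adjusted p = 0.555). The Itga6 value is that of its brightest tested probe, by which the genotypes overlapped. Itga6 nevertheless counted among the genes that reached the fold and unadjusted p thresholds, through a different tested probe whose values are not given here. Itga1, Itga2, Itga7, Itga8, Itga9, Itga11 and Itgb4 were not well above background on any array.

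Among the 20 ligands and island adhesion genes, 9 were tested, 2 were lower without overlap and 7 overlapped, with a median log2 difference of −0.03. Fn1, the gene of fibronectin and so of a ligand of α4β1 and α5β1, read −1.92, −1.19 and −2.93 in P38α+/− and −4.00, −3.06 and −3.80 in P38α−/−, a log2 difference of −1.61 (standard error 0.48, adjusted p = 0.153 by limma). C3, the complement protein whose fragment is bound by αMβ2 and αXβ2, differed by −1.37 (limma, adjusted p = 0.162), also with no overlap. Vcam1, the macrophage ligand of α4β1, read −2.62, −1.36 and −3.88 in P38α+/− and −3.60, −3.61 and −5.91 in P38α−/−, with overlap (log2 difference −1.75, standard error 0.85, adjusted p = 0.292 by limma). Icam4, the erythroblast's own ligand for macrophage integrins, read 2.92, 2.55 and 2.95 in P38α+/− and 2.98, 2.67 and 3.01 in P38α−/−, a log2 difference of 0.08 (standard error 0.19). Maea, which encodes the erythroblast macrophage protein, differed by 0.08 (standard error 0.14), and Madcam1, the gut ligand of α4β7, by 0.40 (standard error 0.37), both with overlap.

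The 34 genes of integrin activation and cytoplasmic partners had 24 tested, with 2 higher, 10 lower and 12 overlapping, and a median log2 difference of −0.51. The talin gene Tln1 and the kindlin-3 gene Fermt3, whose products bind β chain tails to switch integrins on, differed by 0.17 and 0.15 (standard errors 0.15 and 0.17) with overlap. The higher pair were Itgb1bp1, which binds the β1 tail and holds the receptor inactive, at 0.68 (limma, adjusted p = 0.135), and Sharpin, another inhibitor of β1 integrins, at 0.36 (limma, adjusted p = 0.214). Lower differences without overlap included those of Rasgrp2, the exchange factor that loads Rap1 in platelets and neutrophils, at −1.91 (limma, adjusted p = 0.145), and of Cytip, which restrains cytohesin and β2 adhesion in leukocytes, at −1.72 (limma, adjusted p = 0.137). Cytip was tested only through its signal in P38α+/−. The neutrophil marker list and lists of other leukocytes moved the same way as these lower genes, and the part of those cells in the values was not tested.

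Of the 9 tetraspanins and surface partners, 8 were tested, with 1 higher, 2 lower and 5 overlapping, and a median log2 difference of 0.03. Cd81, a tetraspanin that associates with α4β1, read 0.72, 0.84 and 0.64 in P38α+/− and 1.64, 1.83 and 1.90 in P38α−/−. It was higher on all 3 arrays, with a log2 difference of 1.06 (standard error 0.15, adjusted p = 0.0683 by limma), and it passed when only probes well above background on all 6 arrays were kept, a filter under which 0.533% of all genes were called. Cd9 and Cd63, tetraspanins of platelets and leukocyte granules, were lower on all 3 arrays, at −1.84 (limma, adjusted p = 0.105) and −1.85 (limma, adjusted p = 0.163). Cd47, the integrin-associated protein of the red cell surface, differed by 0.02 with overlap.

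The probes most like Itgb7 over the 6 arrays were sought among 15537 probes well above background on all of them. The highest Pearson correlations, given as a description over 6 arrays that fall into the 2 genotypes, were 0.998 for Frmd8 and for Gadd45g, an activator of the stress kinase cascade, 0.995 for Nacc2, a nuclear protein with a BTB domain, and 0.995 and 0.992 for 2 probes of an intergenic transcript of chromosome 8. In all, 183 probes reached 0.95. Each of the 5 was higher on all 3 P38α−/− arrays. Frmd8, whose product binds regulators of membrane proteases, had a log2 difference of 1.05, Gadd45g of 2.99 and Nacc2 of 2.77, and the intergenic probes of 0.96 and 0.86.

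The genes next to Itgb7 were taken in the order of the RefSeq annotation, and none of them overlaps Itgb7. On 1 side Zfp740, a zinc finger gene, had a log2 difference of −1.10 (adjusted p = 0.0843 by limma) and was lower on all 3 P38α−/− arrays, Csad one of 0.04 and Soat2 one of −0.18. On the other side Rarg, a retinoic acid receptor gene, was well above background on 2 P38α+/− arrays alone and was not tested, Mfsd5 differed by 0.05 and Espl1, the separase gene, by −0.04. Csad, Soat2, Mfsd5 and Espl1 overlapped between the genotypes, so none of the 5 tested neighbours shared the direction of Itgb7 beyond the spread of the arrays.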

How the data were processed

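Each of the 6 mice gave 1 one-colour Agilent array. The authors deposited the intensity of every spot as Agilent Feature Extraction 10.7.3.1 wrote it, background-subtracted within the array and not normalized between arrays, and a table of normalized intensities whose steps are not given in the sources used here. Positions are on mm9, as the array files give them, and an mm9 annotation of exons and UTRs was not used here. Probe names were updated through RefSeq (GRCm38.p6) by accession for 27509 probes, by current symbol for 3549 and by synonym for 404, while 24219 names were left as deposited.

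Control spots and outlier spots were left out, spots of one probe were averaged, and 0 spots were saturated. A probe counted as well above background on an array when most of its spots were. After the log2 step each array was centred on its own 75th percentile, taken over the 15538 probes detected above background on every array. Genotypes were compared in R 4.3.3 by limma 3.58.1, in two-sided tests from lmFit and eBayes, and Benjamini-Hochberg adjustment over 18782 probes of 14155 genes, at an adjusted p of at most 0.05 and a fold of at least 2, the threshold of the methods. A gene with a passing probe counted 1 time. The scripts were tested on simulated data. The 9 chains, the pathway lists and the marker lists were chosen with earlier results of these data known. No p is given for the 9 chains, and those given for other genes are adjusted over all tested probes. Sums of marker lists without their brightest gene, or over every listed gene, were added after the data were seen.

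All 9 chains are named, with every probe of a tested chain. From each pathway list the called genes, then up to 3 per direction with the largest difference and no overlap were named, beside the 5 probes most like Itgb7, and Mapk14. Some genes of these lists are counted but not reported by name here. Icam4, Vcam1, Maea, Madcam1, Itga2b, Itga6, Tln1, Fermt3 and Cd47 and the neighbours of Itgb7 were added for their roles or position after their values were seen.

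Whether replicate numbers pair the mice was checked. After the genotype means were taken off, same-numbered arrays correlated at 0.538, 0.312 and 0.424 and others at no more than 0.183, and the series design speaks of pairs. The main fit has no block, as the test in the methods is unpaired. The alternatives were other scalings (75th percentile of all probes, quantile, E1A spike-in spots), the authors' normalized values, dim probes kept or filtered more strictly, normexp (offset 50), a block for the replicate number or for the slide, array weights, each array left out, probes averaged per gene and the methods' unpaired test. In the authors' table, P38α−/− replicate 2 followed its own scanner signals at a Spearman's rho of 0.897, and the other 5 columns at 1. The number of arrays limits the precision.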

Additional observations from a re-analysis of the deposited data

How the results depend on the processing

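Of the integrin chains, 1 was called as reported, and 0 were called with E1A spike-in centring, with no filter on dim probes, with the slide as a block and with the methods' unpaired test after adjustment. Leaving out 1 array at a time gave 0 to 1, with 0 without P38α+/− replicate 2 and without any 1 of the P38α−/− arrays. With the replicate number as a block it was 1 of the chains and 0 of the pathway genes, as without the block, while the share of all tested genes called moved from 0.191% to 0.438%, and 4 marker genes were then called. Of the pathway genes, 0 were called as reported, and 5 with the 75th percentile of all probes (Cd81, Cd9, Itga6, Itgb1bp1 and Rasgrp2), 1 with the stricter filter (Cd81), 4 with array weights (Cd81, Cd9, Itga6 and Rasgrp2) and 8 with the methods' unpaired test without adjustment. The shares of all tested genes called were then 5.18%, 0.533%, 3.34% and 6.09%. Any tested probe of a gene could give its call, so the Itga6 calls need not rest on the brightest probe described above. Of all 27 calls 77.8% were higher in P38α−/−, against 55.5% with the 75th percentile of all probes, 93.3% after quantile normalization and 25.0% with E1A centring. The cause of these shifts was not tested.

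The log2 differences of Itgal, Itgb2, Itgb3 and Itgb7 kept their sign under every alternative run, in ranges of −1.01 to −0.14, −1.29 to −0.51, −1.50 to −0.23 and 2.37 to 3.05. Another filter on dim probes or the replicate block cannot change the log2 difference of a chain that stays in. The stricter filter left Itgb3 out. Those of Itga4, Itgam and Itgb1 ran from −0.33 to 0.41, −0.71 to 0.21 and −0.49 to 0.20, of which −0.33 and −0.49 are means over a gene's probes and the rest values of the brightest probe, and they changed sides of the median probe under 3, 5 and 2 of the 17 alternatives. Signal over background limits Itga5, Itgae and Itgb3 most.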
